A study of Mus musculus with 39 samples.

Results

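Subcutaneous adipose tissue of mice on a high-fat diet that held 20 µg of KAL-1, a botanical formulation, was compared with that of mice on the same diet without it. The 12 arrays of this comparison, of 39 in the series, were the 6 HF20 and the 6 HFC arrays of Weeks 3, 6, 9, 12, 15 and 18, and each HF20 array was paired with the HFC array of the same week. All mice were C57BL/6J, were weaned at 3 to 4 weeks of age and ate freely. HFC is the high-fat diet, rich in sucrose, with 60% of its calories from fat, and HF20 is that diet with KAL-1. LFC, a diet with 10% of calories from fat and no KAL-1, HF5 (5 µg) and HF75 (75 µg) were the other groups of the study and are used here for reference. The labels give 30 animals per group, 5 of them killed every 3 weeks, and do not say whether an array held the RNA of 1 mouse or of a pool. The study's text speaks of 3 biological replicates, but there was 1 array per diet and week here, so n counts arrays, the error is that of the weekly differences between diets, and the number of arrays limits the precision. Nothing in the labels says that the arrays of a diet come from separate cages or batches of animals, so a p value measures only the spread between these weekly pairs.

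White adipose tissue holds fat cells that store triglyceride when food is plentiful and release fatty acids in fasting, together with vessels, fibroblasts and resident immune cells. During growth on a high-fat diet the fat cells enlarge, genes of tissue expansion such as Mest are induced, leptin is secreted in proportion to fat cell size, and macrophages loaded with lipid can gather around dying fat cells. Subcutaneous pads also lie against skin muscle, lymph nodes and, in places, mammary epithelium, so dissection can bring other cell types into a sample.

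Levels are log2 intensities relative to the 75th percentile of each array, so a level of 0 is that percentile, and differences are HF20 minus HFC on the log2 scale. The 75th percentile itself lay between 206 and 708 scanner units on the HF20 arrays and between 321 and 1130 on the HFC arrays, and the largest gap was in Week 12, with 206 against 1130. The HF20 array of Week 15 stood apart, with 4936 spots marked as outliers by the scanner software against at most 78 on each of the other 11 arrays, and with 87.8% of its spots well above background against 56.6 to 68.4% elsewhere. After these spots were dropped, 17882 of 18995 genes had a Week 15 difference. In Week 12 the array labelled HF20 matched the HF5 column of the deposited table (r = 0.9986 across probes, against 0.67 with its own), and the array labelled HF5 matched the HF20 column (r = 0.9989 against 0.66). Which of the labels is right cannot be told from these files, so a number of values and counts are also given without that week or with both arrays exchanged. The adipocyte markers were present on all 12 arrays, with a mean level of 1.49 to 4.58 in HF20 and 0.90 to 4.85 in HFC.

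No gene differed between HF20 and HFC after adjustment over the 18995 genes tested, where the smallest adjusted p was 0.991 (limma, paired by week, Benjamini-Hochberg). The genes at an unadjusted p under 0.05 numbered 580 (3.05%). That share is under the 0.05 that such a threshold allows when no gene differs, so it is no excess. Of these 580, 362 (1.91%) were higher in HF20 and 218 (1.15%) were lower. The mean difference was positive for 52.9% of genes, was 1 or more for 1074 (5.65%) and -1 or less for 265 (1.4%). Each week on its own held large differences, from 7.38 to 23.1% of genes at least 2-fold higher in HF20 and from 9.83 to 16.7% at least 2-fold lower. The difference had the same sign in all 6 weeks for 161 genes (0.848%) that were higher and 204 (1.07%) that were lower. The count at an unadjusted p under 0.05 was 290 when Week 3 was left out, 400 when it was Week 15, 1313 when it was Week 12 and 1394 when it was Week 18, with no adjusted call in any of them. With the day of scanning in place of the week as the block, which left the 4 weeks whose arrays were scanned together, 81 genes passed the adjusted threshold, all of them higher in HF20, and 11 of the 81 were among the 580.

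The genes with lower levels in HF20 are described first. Mest, Agt, Enpep and 7 others had the smallest p among the 93 (0.49%) that were lower in all 6 weeks at an unadjusted p under 0.05. None passed the adjusted threshold. The adjusted p of every gene named below for its mean difference was 0.991 or 0.992 by limma, so the values describe these arrays, and differences are given with their standard error over the weeks.

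Mest, an imprinted gene whose level follows the expansion of fat cells, lay at 0.72, 0.19, 1.33, 0.41, -0.32 and 1.15 in HF20 from Week 3 to Week 18. The HFC levels in the same weeks were 4.62, 3.82, 3.54, 2.30, 0.38 and 1.37. The HFC level was highest in Week 3 and came closer to that of HF20 in later weeks. The mean difference was -2.10 ± 0.53 (SE, n = 6 weeks), or 4.27-fold lower, with an adjusted p of 0.991 by limma. It was -3.25 over Weeks 3 to 9 and -0.94 over Weeks 12 to 18, and the mean level of the 6 LFC arrays was 0.58 ± 0.53 (SD), beside an HF20 mean of 0.58 ± 0.62 as labelled and 1.04 ± 1.21 with the Week 12 arrays exchanged. The array labelled HF5 in Week 12 had a Mest level of 3.18, so the Week 12 difference would have the other sign with the arrays exchanged. Of the 18 adipose expansion and imprinted growth genes tested, 7 had a positive and 11 a negative difference, with a median of -0.09. At an unadjusted p under 0.05, 3 were lower (1.15% of all genes were) and none higher. Sfrp5 (-1.12) was not past that threshold.

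Agt, which encodes angiotensinogen, the precursor of the angiotensin peptides, lay between 0.13 and 2.0 in HF20 and between 1.05 and 4.32 in HFC. Its weekly HF20 levels were 0.38, 2.0, 0.92, 0.13, 0.32 and 1.63 against 2.55, 4.32, 3.01, 1.05, 1.34 and 1.88 in HFC. The groups overlapped, but HF20 was lower in each week, and the mean difference of -1.46 ± 0.33 (SE) corresponds to a 2.76-fold lower level. Enpep, the aminopeptidase that cuts angiotensin II to angiotensin III, lay at 0.15 to 1.49 in HF20 and at 1.12 to 2.06 in HFC, with a difference of -1.02 ± 0.24.

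**Figure D1:**
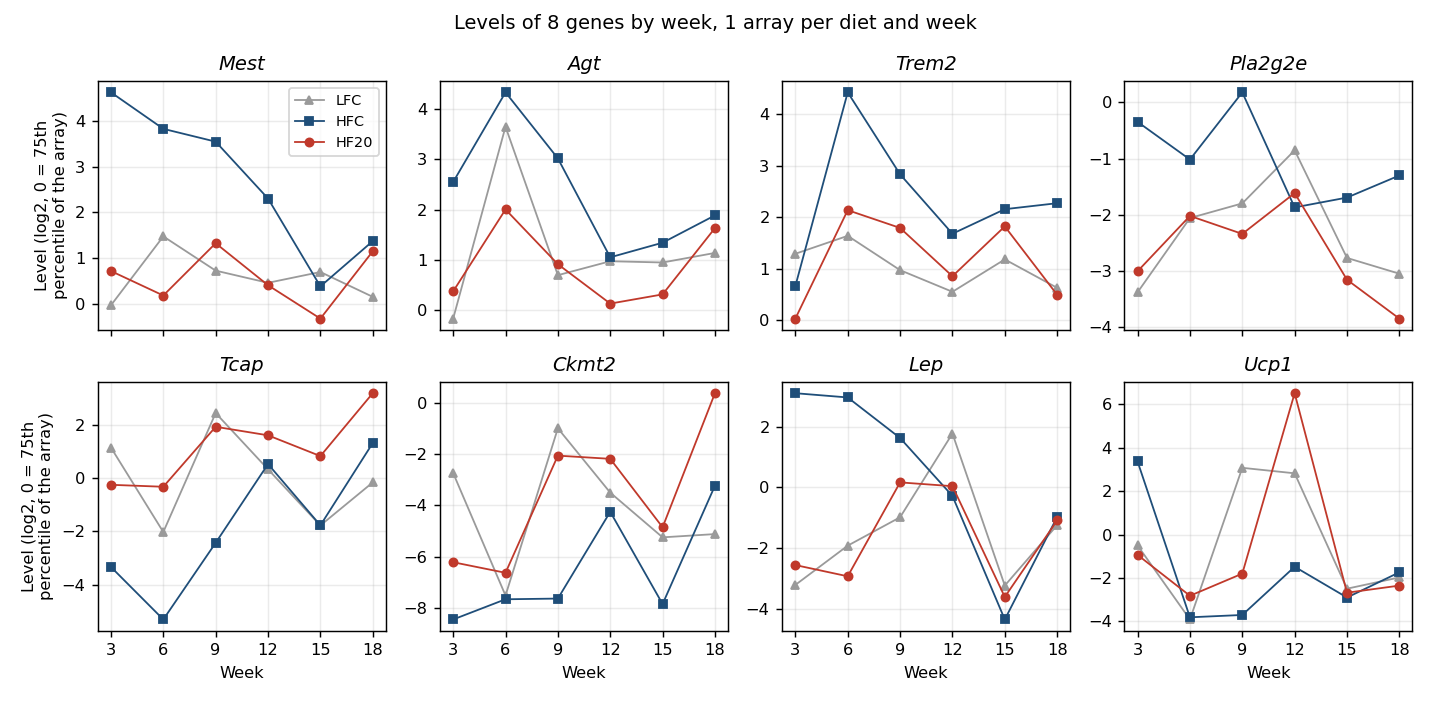
Levels (log2, 0 is the 75th percentile of the array) of 8 genes in Weeks 3 to 18, with 1 point per array for LFC, HFC and HF20. Mest and Agt in HF20 lie under HFC in every week, Tcap and Ckmt2 lie above it, and Ucp1 in HF20 is at 6.51 in Week 12 and at or under -0.93 in the other weeks.

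Osbpl11, an oxysterol-binding protein of the fat cell's endosomes and Golgi, differed by -1.14 ± 0.27, Slc16a7, a carrier of pyruvate and lactate, by -1.31 ± 0.36 and Pcbd1, which recycles tetrahydrobiopterin and serves as a cofactor of HNF1, by -1.51 ± 0.41. The Slc16a7 level of the Week 3 HFC array, 1.09, lay far above that of the other 5 HFC arrays, of which the highest was -0.37. C6, the complement component, differed by -1.07 ± 0.27, Garnl4, a GTPase-activating protein of Rap, by -1.07 ± 0.29 and the serine protease Htra4 by -0.97 ± 0.24. C6, Garnl4 and Htra4 are dim probes, and with the normexp background correction their differences turned positive (0.40, 0.49 and 1.01). The tenth of these genes, Trem2, is described with the macrophage genes.

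In the other direction, among the 96 genes (0.505%) that were higher in all 6 weeks at an unadjusted p under 0.05, the 10 with the smallest p were Tcap, Ajap1, Ckmt2, Srl, Pcsk1, Slc6a4, Txlnb, Abra, Myot and Pgam2. Tcap caps titin in the Z disc, Ckmt2 is the mitochondrial creatine kinase of muscle, Srl (sarcalumenin) binds calcium in the sarcoplasmic reticulum, Myot is a Z-disc protein, Abra is an actin-binding protein of striated muscle, Txlnb is a muscle taxilin and Pgam2 is the muscle phosphoglycerate mutase. The other three are the cell junction protein Ajap1, the prohormone convertase Pcsk1 and the serotonin transporter Slc6a4.

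Tcap lay at -0.25, -0.33, 1.92, 1.60, 0.82 and 3.17 in HF20 from Week 3 to Week 18 and at -3.33, -5.29, -2.43, 0.52, -1.77 and 1.31 in HFC. The 2 ranges overlapped, but HF20 lay above HFC in each week. The difference of 2.99 ± 0.52 (SE, adjusted p = 0.991 by limma) was a 7.92-fold higher level, and the LFC arrays had a mean of -0.01 ± 1.71 (SD).

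Pgam2 lay at -2.01, -1.74, 0.17, -1.11, -1.63 and 1.40 in HF20 and at -5.22, -4.62, -5.59, -1.70, -3.62 and -0.49 in HFC, a difference of 2.72 ± 0.61. Ckmt2 lay between -6.63 and 0.37 in HF20 and between -8.45 and -3.24 in HFC, a difference of 2.92 ± 0.55, but it was well above background on only 4 HF20 arrays and 2 HFC arrays. The same holds for Myot (2.56 ± 0.57), while Abra (2.58 ± 0.57) was well above background on 6 HF20 and 2 HFC arrays. The differences of Ckmt2, Myot and Abra are therefore set against HFC signal that was mostly not well above background. Srl (1.23 ± 0.24) and Txlnb (1.10 ± 0.24) were well above background on all 12. Tcap was well above background on all 12 as well, and Pgam2 on all but 1 HFC array.

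The starts of Pgam2 and Ckmt2 are shown because they were the muscle genes of this set with an entry among the RefSeq promoters given (GRCm38.p6). Each sequence runs from 250 bases before to 50 bases after the start of the gene, and the capitals mark the E-box CANNTG, the motif that the muscle regulators of the MyoD family bind. The Pgam2 sequence is chr11:5803747-5804046 and the Ckmt2 sequence chr13:91876836-91877135, both read on the minus strand.
Pgam2: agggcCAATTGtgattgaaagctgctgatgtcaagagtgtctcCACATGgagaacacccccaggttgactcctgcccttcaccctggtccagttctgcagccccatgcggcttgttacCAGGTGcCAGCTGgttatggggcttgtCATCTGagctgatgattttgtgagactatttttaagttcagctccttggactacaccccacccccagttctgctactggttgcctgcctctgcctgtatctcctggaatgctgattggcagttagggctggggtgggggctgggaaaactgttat
Ckmt2: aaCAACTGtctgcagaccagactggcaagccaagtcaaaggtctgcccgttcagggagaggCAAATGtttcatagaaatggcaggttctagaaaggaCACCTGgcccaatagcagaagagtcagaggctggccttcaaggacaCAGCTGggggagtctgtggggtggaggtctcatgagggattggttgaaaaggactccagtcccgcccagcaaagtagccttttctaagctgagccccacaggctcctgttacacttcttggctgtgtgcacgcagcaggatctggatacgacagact
The Pgam2 window held 5 E-boxes and the Ckmt2 window 4. Of all 32851 promoter windows of 300 bases, 72.3% held at least 1, and those with 4 or more were not counted. This motif reads as an E-box on both strands. TATAAA, searched on both strands and present in 13.6% of the windows, was in neither of the pair. The MEF2-like motif CTANNNNTAG, present in 3.69% of the windows, was in neither as well. Of the other higher genes with an entry, Slc6a4 held 2 E-boxes and Ajap1 and Pcsk1 held 0.

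A list of 12 defining skeletal muscle markers, the contractile and energy proteins of the fibre, was examined as well. All 12 had a positive mean difference and 8 an unadjusted p under 0.05 (1.91% of all genes tested were higher at this threshold), with a median of 1.77 against 0.03 over all genes. Of the 12, 9 were well above background on all 6 HF20 arrays and 7 on all 6 HFC arrays, so the size of part of these differences rests on dim HFC values. Among the 7 that were well above background on all 12 arrays, 4 had an unadjusted p under 0.05 and the median was 1.30. Pvalb (3.20 ± 0.95), Tnni2 (2.53 ± 0.83) and Myh4 (3.24 ± 1.20), which encode parvalbumin, fast troponin I and the fast myosin heavy chain, were among the 8. The mean level of the 12 markers lay between -2.34 and 2.05 in HF20, with a median of -0.66, and between -3.78 and just under 0 in HFC, with a median of -2.87. The weekly median difference was 2.06, 1.53, 4.43, -0.37, 0.89 and 2.17, so Week 12 went the other way. In that week Tcap and Pgam2 were higher in HF20. The part of the muscle content of a sample in the differences of Tcap and the other genes of muscle fibres was not tested. In bulk tissue a different number of cells of a type and a different amount of RNA per cell cannot be told apart.

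The count of muscle markers at an unadjusted p under 0.05 depended on the arrays used. It was 2 of 12 without Week 18, 10 of 12 without Week 12, 2 of 12 without the pairing by week and 11 of 12 with the Week 12 arrays exchanged. The genes higher at that threshold over the whole table numbered 1196, 826, 315 and 668 under these settings, against 362 over all weeks. The array labelled HF5 in Week 12 held far more of these transcripts than the one labelled HF20, with a Tcap level of 6.60 and a Pgam2 level of 5.48.

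Of the 3 genes outside muscle, Pcsk1 lay between -5.19 and -3.29 in HF20 and between -8.51 and -4.57 in HFC, a difference of 2.55 ± 0.52, and was well above background on 6 HF20 and 3 HFC arrays. Ajap1 differed by 1.72 ± 0.32. Slc6a4 differed by 1.40 ± 0.29, and by 1.34 from HF75 (adjusted p = 0.851 by limma). It differed from HF5 by 0.79. With the Week 12 arrays exchanged, the log2 difference was 0.95 from HF75 and 0.002 from HF5. Slc6a4 then differed from HFC by 1.01 (unadjusted p = 0.0773 by limma). Its level on the Week 12 array labelled HF5 was -6.44, below every HF20 array. Ankrd37, a small ankyrin protein known as a target of hypoxia-inducible factor, lay at -1.56 to 1.07 in HF20 and -3.24 to -1.35 in HFC. It was higher in HF20 in all 6 weeks, a difference of 1.54 ± 0.40. Of the 20 hypoxia response genes tested, 8 had a positive and 12 a negative difference, with a median of -0.06. At an unadjusted p under 0.05, 1 of the 20 was higher and 1 lower, beside 1.91% and 1.15% of all genes.

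**Figure D2:**
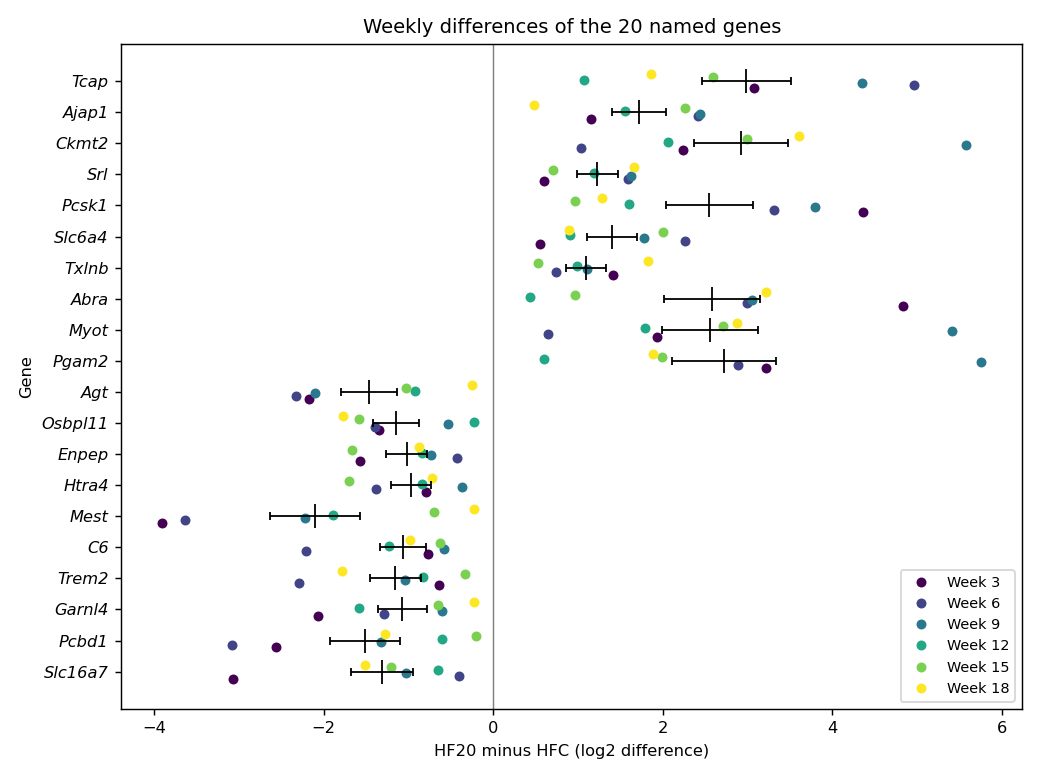
Weekly differences, HF20 minus HFC (log2), of the 10 higher and 10 lower genes. Points are weeks, black ticks are means and bars are SE. The rule took genes of 1 sign in all 6 weeks, so every point of a gene lies on its side of 0, and the points spread from 0.60 to 5.76 for Pgam2 and from -3.90 to -0.22 for Mest.

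Groups that did not overlap at all were rare. The 6 HF20 levels lay entirely above or below the 6 HFC levels for 8 of the 18995 genes (0.0421%), with 5 (0.0263%) lower in HF20 and 3 (0.0158%) higher, which are named after their values were seen. H6pd, which makes NADPH inside the endoplasmic reticulum, lay at 1.43 to 2.58 in HF20 and 2.63 to 3.85 in HFC, a difference of -1.08 ± 0.32. Derl1, a channel protein that moves misfolded proteins out of the same compartment, lay at 1.36 to 1.82 against 2.08 to 2.99, a difference of -0.73 ± 0.22. Ptprd, a receptor tyrosine phosphatase, differed by -1.12 ± 0.46, the kinase Cdkl2 by -0.75 ± 0.23 and Prrg3 by -0.71 ± 0.24. On the higher side, Hrc, a calcium-binding protein of the sarcoplasmic reticulum, differed by 1.60 ± 0.46, the transcription factor Eya1 by 0.80 ± 0.24 and the centrosomal protein Cep63 by 0.34 ± 0.18. With the Week 12 arrays exchanged, 4 of the 8 (Cep63, Eya1, Hrc and Prrg3) were still without overlap. Of the endoplasmic reticulum stress genes, 0 of 25 had an unadjusted p under 0.05 (3.05% of all genes did), and their median was -0.19.

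Of 23 genes of lipid-laden and inflammatory macrophages tested, 18 had a negative mean difference and 6 were lower at an unadjusted p under 0.05 (1.15% of all genes), with none higher and a median of -0.71. The 6 were Trem2, the lipid receptor of such macrophages, the glycoprotein Gpnmb, the lectin Lgals3, the metalloelastase Mmp12, the lysosomal protein Cd68 and the cytokine Il1b.

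Trem2 lay at 0.03, 2.14, 1.79, 0.85, 1.82 and 0.49 in HF20 and at 0.66, 4.43, 2.84, 1.68, 2.16 and 2.27 in HFC. HF20 was lower in each week within overlapping ranges, with a difference of -1.15 ± 0.31, and the LFC mean was 1.04 ± 0.41 (SD). Cd68 lay at -1.30, 2.59, 1.11, -0.50, -0.96 and 1.12 in HF20 and at 0.18, 2.92, 0.51, 1.04, 1.88 and 2.0 in HFC, a difference of -1.08 ± 0.43, with HF20 higher in Week 9. Lgals3 was lower in all 6 weeks (2.94 to 4.59 against 3.14 to 6.41, difference -0.76 ± 0.28) and Gpnmb in 5 (-1.17 ± 0.40). Mmp12 differed by -2.39 ± 0.80 but was well above background on 3 HF20 arrays, and its sign turned with the normexp background correction (0.44). The general macrophage genes Emr1 (-0.65 ± 0.43) and Itgax (-0.99 ± 0.47) and the chemokine Ccl2 (-0.22 ± 0.60) were not past the threshold.

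The macrophage count rested on part of the weeks. It was 6 of 23 over all weeks, 2 without Week 12 (median -0.56), 3 without Week 15 (median -0.43), 2 without both (median -0.19) and 10 without Week 9, and 1 without the pairing by week. Over the whole table the lower genes numbered 218 over all weeks, 487 without Week 12, 162 without Week 15, 495 without both, 253 without Week 9 and 216 without the pairing. Of Trem2, Cd68, Lgals3, Gpnmb and Mmp12, 4 kept an unadjusted p under 0.05 with the Week 12 arrays exchanged, 2 without Week 12 and 2 without Week 15. The 8 macrophage markers had a mean level of -0.08, 2.13, 1.15, -0.48, 0.09 and 1.09 in HF20 and 1.20, 1.65, 0.20, 0.96, 1.94 and 1.51 in HFC, so they were lower in HF20 in Weeks 3, 12, 15 and 18 and higher in Weeks 6 and 9. Their part in the difference of Trem2 and Cd68 was not tested.

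Annexins and phospholipases A2, proteins that bind membrane phospholipid or release arachidonic acid from it, were negative in 17 of 19 genes, with 4 at an unadjusted p under 0.05, all lower in HF20 (1.15% of all genes were lower at this threshold), and a median of -0.46. Of the 4, 3 stayed under that p with the Week 12 arrays exchanged and 2 without Week 15. Pla2g2e, a secreted phospholipase of fat cells, lay at -3.00, -2.02, -2.34, -1.61, -3.15 and -3.84 in HF20 and at -0.35, -1.02, 0.17, -1.87, -1.69 and -1.30 in HFC. Only Week 12 had HF20 above HFC, and the difference was -1.65 ± 0.42. Anxa6 (-0.69 ± 0.22) and Anxa2 (-0.66 ± 0.24) were lower in all 6 weeks, and the lysosomal Pla2g15 differed by -0.59 ± 0.25.

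Over the gene lists together, cell type markers left out, 33 of 698 genes tested (4.73%) were lower at an unadjusted p under 0.05 and 5 (0.716%) higher. Of all genes 1.15% and 1.91% were, and the lists were chosen with earlier results of these data known. The markers left out include the 8 higher skeletal muscle genes. The 5 higher genes outside the markers were Ankrd37, H2-Ob (2.67 ± 1.10), Chi3l3 (1.72 ± 0.73), Gata3 (0.91 ± 0.39) and Ahrr (0.62 ± 0.26). From the 33, 7 secreted and metabolic genes are described here, chosen after their values were seen. Saa3, the serum amyloid A made by fat cells and macrophages, lay at -4.54 to -0.36 in HF20 and -1.56 to 0.42 in HFC (difference -1.65 ± 0.61). Lpl, lipoprotein lipase, which frees fatty acids from circulating triglyceride, lay at 3.68 to 5.87 against 4.79 to 6.30 (-0.94 ± 0.38), with 1 HFC array saturated. Agpat9, which starts triglyceride synthesis, differed by -1.80 ± 0.76 and Por, the reductase that feeds cytochromes P450, by -0.94 ± 0.34. Hk2, hexokinase, differed by -0.99 ± 0.38, Steap4, a metalloreductase of fat cells, by -1.37 ± 0.49 and Igf1, the growth factor, by -0.75 ± 0.30. Of these, Por was lower in all 6 weeks. With the Week 12 arrays exchanged 1 of these 7 genes, Steap4, kept an unadjusted p under 0.05, and without Week 15 also 1, Saa3. Adipokines as a list were negative in 12 of 14 genes with a median of -0.87, 2 of them lower at an unadjusted p under 0.05 (1.15% of all genes). That median was -1.53 over Weeks 3 to 9 and 0.20 over Weeks 12 to 18, or -0.02 late without Week 12. The adipocyte markers had -2.05 early and 1.00 late.

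A further question was whether the difference between HF20 and HFC held over the course of feeding. The genes whose difference was not the same in Weeks 3 to 9 and Weeks 12 to 18 numbered 2357 (12.4%) at an unadjusted p under 0.05, 924 (4.86%) upward and 1433 (7.54%) downward, and none passed the adjusted threshold (limma, smallest adjusted p = 0.0897). The median differences of the fat cell lists were negative early and positive late, and those of the lymphocyte, antigen presentation and collagen lists were positive early and negative late. The values below give the late minus the early difference.

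Leptin shows the pattern. Lep lay at -2.56, -2.93, 0.16, 0.04, -3.61 and -1.09 in HF20 and at 3.10, 2.96, 1.62, -0.28, -4.35 and -0.98 in HFC. HFC began high and ended low, and HF20 stayed at or under 0.16, so the difference was -4.33 over Weeks 3 to 9 and 0.32 over Weeks 12 to 18 (change 4.65 ± 1.20) and -2.01 ± 1.02 over all weeks. Adiponectin (Adipoq) went from -2.43 to 1.40, the desaturase Scd1 from -3.06 to 0.72 and fatty acid synthase (Fasn) from -1.83 to 1.03. Each of these 3 probes was saturated on 2 HFC arrays.

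The genes named for the change between periods had an adjusted p of 0.0897. Slc2a4, the insulin-regulated glucose transporter, lay at 2.71, 1.79, 1.59, 3.05, 2.57 and 2.68 in HF20 and at 4.95, 3.18, 3.35, 1.57, 1.28 and 1.26 in HFC, so every early HFC level was above every HF20 level of the same weeks and every late one below. The late minus early difference was 3.20 ± 0.41 (SE). It was 5.66 ± 0.68 for Odz4, a teneurin, from -4.65 early to 1.01 late, and 3.52 ± 0.44 for Pkp2, the desmosomal plakophilin. In the other direction, Cd5, a surface protein of T cells, lay at 0.09, 0.36, 1.42, -2.44, -0.72 and 0.33 in HF20 and at -3.59, -3.38, -2.08, -0.66, 1.16 and 0.84 in HFC, a late minus early difference of -5.03 ± 0.50. It was -6.91 ± 0.74 for Faim3, the IgM receptor of B cells, and -4.84 ± 0.51 for Tcf7, a transcription factor of T cells.

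Among the lists, 9 of 10 adipocyte markers had an upward change at an unadjusted p under 0.05, as 4.86% of all genes did, with a median difference of -2.05 early and 1.00 late, against 0.08 and 0.00 over all genes. Lipolysis genes had 11 of 18 upward (-1.81 early, 0.75 late), and Adrb3, the adrenergic receptor that starts lipolysis in fat cells, had a late minus early difference of 6.70 ± 0.93. Fatty acid synthesis had 11 of 21 (-1.70 and 0.38), uptake and triglyceride synthesis 10 of 17 (-1.60 and 0.47) and fatty acid oxidation 15 of 25 (-1.23 and 0.93). Without Week 12 the count for fatty acid oxidation was 8 of 25 and its late median 0.20, and without Week 3 it was 7 of 25. For the adipocyte markers the count without Week 12 was 8 of 10, with a late median of 0.47. The late medians without Week 12 were 0.05 for fatty acid synthesis, 0.06 for uptake and triglyceride synthesis and 0.44 for lipolysis.

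The mean level of the adipocyte markers followed the same course as these lists. It was 2.70, 1.63, 3.32, 4.58, 1.49 and 3.40 in HF20 and 4.85, 4.81, 4.53, 2.71, 0.90 and 2.91 in HFC. The part of adipocyte content in the lists of lipid metabolism was not tested.

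Collagens and matrix proteins had 22 of 31 genes with a downward change at an unadjusted p under 0.05, as 7.54% of all genes did. Their median went from 1.08 early to -1.10 late, with 8 of 31 downward without Week 12 and 12 of 31 without Week 15. Among all 18995 genes the downward ones numbered 1433 over all weeks, 1309 without Week 12, 1393 without Week 15 and 1552 without Week 3. Adipose progenitor and fibroblast genes had 7 of 15 downward (1.12 to -1.10). The part of fibroblast content in the collagen list was not tested. Chemokines and their receptors had 15 of 27 downward (0.87 to -1.49), with 10 of 27 without Week 12, and MHC class II presentation 9 of 11 (0.85 to -1.26). T lymphocyte markers had 6 of 8 downward (3.08 to -1.52), and still 6 of 8 without Week 3, Week 12 or Week 15. Only 3 of these 8 probes were well above background on all 12 arrays, and 18 of their 24 early HFC values were, so the early difference is partly one against background signal. B lymphocyte markers had 4 of 5 (3.77 to -0.80). The mean level of the T lymphocyte markers was -2.16, -2.53, -1.53, -4.28, -3.35 and -2.73 in HF20 and -4.91, -5.47, -4.38, -3.59, -2.08 and -1.45 in HFC. The T lymphocyte markers of HF20 were above HFC in each early week and below it in each late week. The median difference of the B lymphocyte markers had the same signs in each week, but their mean level over the 6 on the array was higher in HF20 in Weeks 12 and 15 too. Whether lymph node tissue in the samples has a part in the antigen presentation and chemokine genes was not tested.

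**Figure D3:**
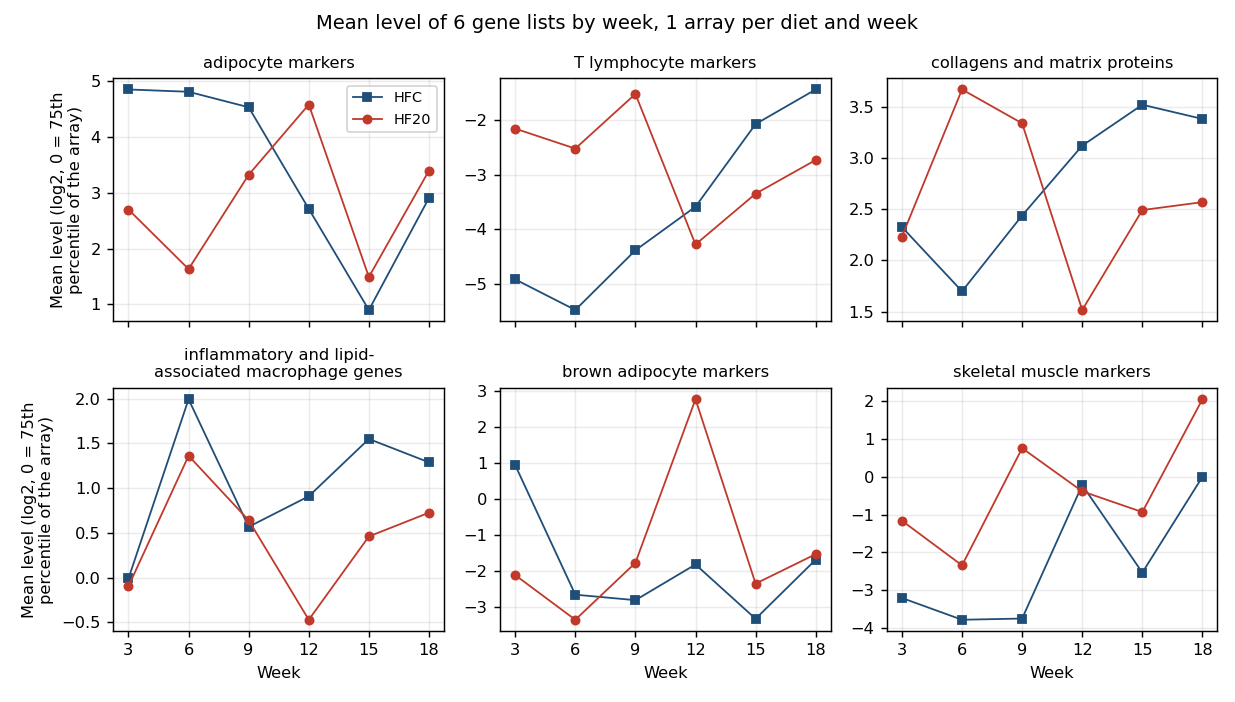
Mean level (log2, 0 is the 75th percentile of the array) of 6 gene lists in each HF20 and HFC array by week. The HFC line of the adipocyte markers starts at 4.85, falls to 0.90 in Week 15, ends at 2.91 and crosses the HF20 line between Week 9 and Week 12, where the T lymphocyte lines cross the opposite way, and HF20 in Week 12 has a brown adipocyte level of 2.77.

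Thermogenic genes turned on single arrays. Ucp1, the uncoupling protein of brown and beige fat cells, lay at 6.51 in HF20 in Week 12 and between -2.82 and -0.93 in the other 5 HF20 arrays, and at 3.37 in HFC in Week 3 and between -3.81 and -1.48 in the other 5. The mean difference of 1.03 ± 1.36 was below its error. Of 14 thermogenic genes tested, 13 had a positive mean difference (52.9% of all genes) and 0 reached an unadjusted p under 0.05 (3.05% of all genes), with a median of 0.72 that came to 0.21 without Week 12 and 0.29 with the Week 12 arrays exchanged. The mean level of the 6 brown adipocyte markers was 2.77 on the Week 12 HF20 array and -1.54 or lower on the other 5, and the array labelled HF5 in that week had a Ucp1 level of -0.75.

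**Figure D4:**
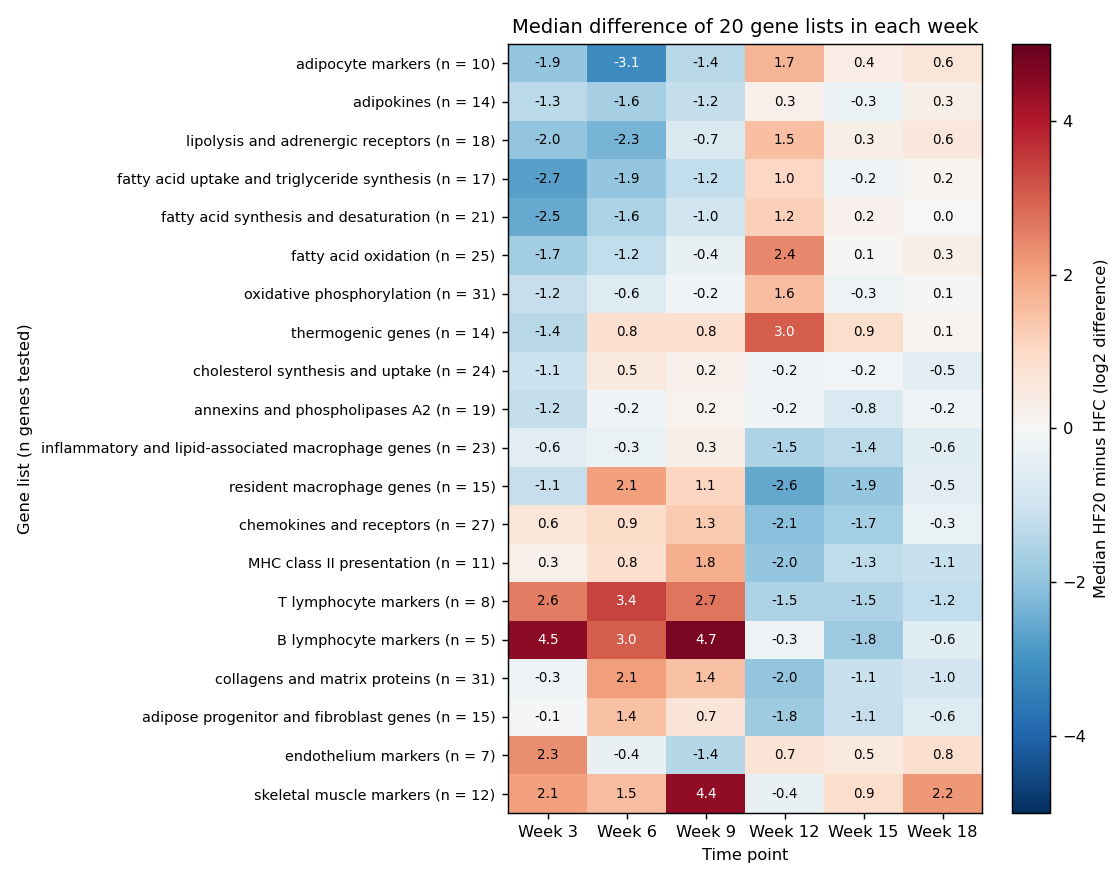
Median difference, HF20 minus HFC (log2), of 20 gene lists in each week, with the number of genes tested beside each name. Adipocyte, lipolysis and fatty acid lists are negative in Weeks 3, 6 and 9 and mostly positive from Week 12. The cholesterol list is positive in Weeks 6 and 9 and negative in the other weeks. Collagen and lymphocyte lists run mostly opposite to the adipocyte markers, and the skeletal muscle markers are negative in Week 12 only (-0.37).

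The 20 µg dose was set beside the other doses over the 30 arrays of the 5 diets. No gene differed between HF20 and HF5 or between HF20 and HF75 after adjustment, and 159 (0.837%) and 530 (2.79%) had an unadjusted p under 0.05. The Mest level differed by -0.95 from HF5 and by -0.18 from HF75, and with the Week 12 arrays exchanged by -0.03 and 0.28. Agt differed by -0.78 from HF5 and by -0.73 from HF75, and by -0.13 and -0.40 after the exchange. Trem2 differed by -0.75 and 0.02 as labelled and by -0.49 and 0.16 exchanged. Tcap differed by 0.29 from HF5 and -0.51 from HF75 as labelled and by 1.96 and 0.33 exchanged. The sign against HF75 turned for Mest and Tcap. None of these passed adjustment, and a p that misses the threshold does not show that the doses acted alike. The count against HF75 was 1607 without Week 12 and 300 without Week 15, and that against HF5 was 124 and 69.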

How the data were processed

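Total RNA of subcutaneous adipose tissue was measured on 39 single-colour Agilent arrays. Spot intensities in the array files came, per the file headers, from Agilent Feature Extraction 10.5.1.1 (the labels list 9.1), background-subtracted and detrended within the array but not normalized between arrays. A deposited table gives every array as log2 ratio to LFC at its time point. The study's methods name Agilent GeneSpring GX for such values, and the table was used as an alternative only. In the 6 LFC columns of Weeks 3 to 18 it holds 0 throughout.

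For each of 43803 spots the log2 processed intensity minus that of the array's 75th percentile was taken. Spots with an outlier mark were dropped, spots of a probe were averaged, and each of 29411 gene names took the brightest of its probes (40628 in all). Tested were the 18995 genes well above background on at least 6 of the 12 arrays. The fit (limma 3.58.1, R 4.3.3) had the week as block and was two-sided, with Benjamini-Hochberg adjustment over all genes and a threshold of 0.05. The pairing comes from the time point in the labels. Deviations of the 2 diets from their own means correlated within weeks at 0.03, 0.20, -0.17, -0.35, 0.21 and -0.02, so arrays of a week did not deviate together throughout. The other doses entered a fit of 30 arrays.

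Named are, in each direction, the 10 genes with the smallest p among those of 1 sign in all 6 weeks at an unadjusted p under 0.05, since none passed adjustment, leaving out uninformative names and genes well above background on under 4 arrays of the brighter diet. To these come up to 3 genes per direction for the change between periods, up to 4 with the smallest p per list, and 11 genes always named. Il1b, the single muscle markers and the genes without overlap were named after their values were seen. The comparison, its arrays and all gene lists were chosen with earlier results of these data known. Mean levels of lists are over members on the array. In data simulated from these arrays, 200 of 18995 genes were changed. Of genes with a log2 change of 2, 42.5% passed adjustment, with a change of 4 83% did, and with a change of 1 0% did. Of the genes left unchanged there, 5.05 to 5.44% had an unadjusted p under 0.05, beside 3.05% of all genes on the arrays. Whether the rates of that data hold for the arrays themselves was not tested. Gene names are those of the array design. Promoters were matched by symbol, and no coordinates were taken from the arrays, whose genome build differs from the reference.

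Alternatives were the Week 12 arrays exchanged, each week left out, no block, the day of scanning as block, normexp correction with an offset of 50, quantile normalization, other filters, weights and priors, all 30 arrays and the methods' t-test. Leaving out Weeks 12 and 15 together and dropping saturated probes were added after seeing the data.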

Additional observations from a re-analysis of the deposited data

Results flagged for a closer look

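Single arrays stood far from the other 5 of their diet in 16 of 158 sets of 6 values checked. By chance the rule marks about 1 in 20 independent sets. These sets share arrays and genes, so the 16 cannot be compared with that rate. On the HF20 array of Week 12 the mean level was the highest for fatty acid synthesis (1.95, next 0.82), fatty acid oxidation (3.02, next 1.34), thermogenic genes (0.83, next -1.36), oxidative phosphorylation (4.84, next 3.58) and brown adipocyte markers (2.77, next -1.54), and the Ucp1 level was 6.51 (next -0.93). This is the array that matches the HF5 column of the deposited table.

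On the HFC array of Week 3 the mean level was the highest for cholesterol synthesis (0.87, next -0.10) and hypoxia response genes (1.65, next 1.44) and the lowest for endothelial markers (3.06, next 4.28), and the levels of Slc16a7 (1.09, next -0.37) and Ucp1 (3.37, next -1.48) were the highest of that diet. The HFC array of Week 6 was highest for antioxidant Nrf2 targets (2.95, next 2.58) and lowest for glucocorticoid response genes (2.93, next 3.50). The HF20 array of Week 9 was lowest for endothelial markers (3.60, next 4.79). The HF20 array of Week 15 had the most spots well above background (87.8%, next 66.0%) and the most outlier spots (4936, next 78).

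The median HF20 minus HFC difference had one sign in each of Weeks 3, 6 and 9 and the other in each of Weeks 12, 15 and 18 for 11 of 49 lists, and this change of a list's median was not tested. Late minus early, it came to 2.09 for fatty acid synthesis, 2.55 for lipolysis, 2.16 for fatty acid oxidation, 0.16 for adipogenic transcription factors and 3.06 for adipocyte markers. It was -2.36 for chemokines, -2.11 for MHC class II presentation, -1.44 for matrix proteases, -0.96 for cell cycle genes, -4.56 for B lymphocyte markers and -4.60 for T lymphocyte markers. The same change gene by gene is given with the lists above.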

How the results depend on the processing

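No gene passed adjustment for HF20 against HFC under any alternative run but the block for scan day, which gave 81 (1028 at an unadjusted p under 0.05) over the 4 weeks scanned together. None passed for the change between periods under the alternatives run for it, which did not include the unpaired t-test or leaving out Weeks 12 and 15 together. The 580 genes at an unadjusted p under 0.05 became 897 with the Week 12 arrays exchanged, 7452 with the normexp correction (6028 higher, with the median of all genes at 0.18), 3474 with no filter on dim probes (3288 higher, median 0.23) and 1204 without Weeks 12 and 15 (271 shared with the 580). With 1 week left out they ran from 290 to 1394 (1313 for Week 12), and the 2357 genes of the change between periods from 1696 to 2519. That change gave 1505 with the normexp correction. Quantile normalization gave 207 higher and 404 lower against 362 and 218, and the methods' t-test 290 and 314 when paired. HF20 against HF5 gave 69 without Week 15 (124 without Week 12) and 814 from the 12 arrays of both doses alone (159 in the 30-array fit), and HF20 against HF75 gave 300 without Week 15 and 1607 without Week 12 (530 over all weeks). The normexp correction turned the sign of Htra4 (1.01), C6 (0.40), Garnl4 (0.49), Bmp3 (0.21), Mmp12 (0.44), Hmmr (1.45) and Cdc2a (0.73). The causes were not tested. Dim and saturated probes limit the size of a difference on both ends of the scale.

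Without the replicate block for the week, 531 genes had an unadjusted p under 0.05 and 0 an adjusted one, and for the change between periods 2197 and 0. Of the 20 genes named first, 17 kept an unadjusted p under 0.05 without the block, 18 with the Week 12 arrays exchanged and 14 in the fit of 30 arrays. Their choice fixed their sign.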

Other observations

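Ribosomal proteins of the cytoplasm had a positive mean difference in 27 of 30 genes (52.9% of all genes did), with a median of 0.36 and none at an unadjusted p under 0.05 (3.05% of all genes). Saturation touched 19 of the 30 probes on at least 1 array, and the 11 others had 8 positive differences and a median of 0.26. With the normexp correction the median of the 30 was -0.24. Cholesterol synthesis genes had 21 of 24 negative, a median of -0.20 and none at that threshold. Complement genes were negative in 16 of 19 with a median of -0.46, 1 of them lower at an unadjusted p under 0.05 (1.15% of all genes were lower at it and 1.91% higher). Endothelial markers were positive in 7 of 7 with a median of 0.54, and smooth muscle and pericyte markers in 5 of 6 with a median of 0.58, none at that threshold.

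Circadian clock genes (0 of 18, median -0.13), heat shock chaperones (0 of 13, 0.19), interferon-stimulated genes (0 of 25, -0.08), Toll-like receptors (0 of 19, -0.13) and glucocorticoid response genes (0 of 15, -0.15) had no gene at an unadjusted p under 0.05, a share of 3.05% over all genes. TGF-beta and BMP response genes had 14 of 24 positive differences and a median of 0.10, with 3 lower at it, among them the inhibitor of that pathway Pmepa1 (-1.08 ± 0.35) and the BMP antagonist Chrdl1 (-0.90 ± 0.30), whose second probe gave 0.34. Xenobiotic enzymes had 3 of 20 lower and 1 higher, beside 1.15% and 1.91% of all genes.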
